A study of Mus musculus with 6 samples.

Results

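The transcripts described here are those of 10 genes of the NF-kappaB system, of 55849 genes in the count table, in the descending colon of Muc2-/- and wild-type mice. They comprise 4 subunit genes (Nfkb1, Nfkb2, Rela and Relb) and 6 genes of the inhibitor of kappaB (IkappaB) family (Nfkbia, Nfkbib, Nfkbie, Nfkbiz, Nfkbid and Bcl3), matched by gene symbol. All 10 were found, and all 10 were among the 16107 genes with enough counts to be tested. The family was chosen by the difference of Nfkbiz between these genotypes, which was past the threshold in edgeR, so every difference between genotypes given for a member is a description of these libraries, with no test of its own. RNA of mice aged 12 weeks was sequenced after poly(A) selection, in 3 Muc2-/- and 3 wild-type C57BL/6 libraries. Muc2 encodes the gel-forming mucin of colonic mucus, and mice lacking it develop chronic colitis. The mice were untreated, and the labels do not describe the Muc2 allele, the sex, the number of animals behind each library or a batch. The titles name crypts, whereas the protocols describe colon tissue.

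NF-kappaB transcription factors are dimers of Rel-domain proteins. In resting cells the cytoplasmic inhibitors encoded by Nfkbia, Nfkbib and Nfkbie hold the dimers away from DNA until IkappaB kinase marks the inhibitors for destruction. The nuclear, or atypical, members encoded by Nfkbiz, Nfkbid and Bcl3 bind subunit homodimers on chromatin and modulate transcription of selected genes. Several of these genes, Nfkbia, Nfkb2 and Nfkbiz among them, are themselves induced by NF-kappaB, and in the gut epithelium the system is engaged by microbial products and by cytokines such as interleukin-1 and interleukin-17.

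The promoter sequences of members at both ends of the range of differences are shown because the genotype difference was unequal across the family. RefSeq windows (GRCm38.p6) running from 250 bases before to 50 bases after the start site were given for 7 of the 10 members, in 11 windows, and not for Nfkbiz, Nfkb1 and Relb. Capitals mark matches to the kappaB consensus, searched on both strands, where a palindromic match counts once. Nfkbia lies on the minus strand (chr12:55492598-55492897), Bcl3 on the minus strand (chr7:19822706-19823005), Nfkb2 on the plus strand (chr19:46304487-46304786, the first of its 3 windows) and Rela on the plus strand (chr19:5637291-5637590). Each sequence is written 5′ to 3′ on the strand of its gene.
Nfkbia: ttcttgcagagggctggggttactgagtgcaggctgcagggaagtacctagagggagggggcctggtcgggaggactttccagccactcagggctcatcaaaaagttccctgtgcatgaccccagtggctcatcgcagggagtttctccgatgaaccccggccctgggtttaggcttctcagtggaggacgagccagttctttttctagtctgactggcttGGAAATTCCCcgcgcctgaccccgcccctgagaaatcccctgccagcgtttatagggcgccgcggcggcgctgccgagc
Bcl3: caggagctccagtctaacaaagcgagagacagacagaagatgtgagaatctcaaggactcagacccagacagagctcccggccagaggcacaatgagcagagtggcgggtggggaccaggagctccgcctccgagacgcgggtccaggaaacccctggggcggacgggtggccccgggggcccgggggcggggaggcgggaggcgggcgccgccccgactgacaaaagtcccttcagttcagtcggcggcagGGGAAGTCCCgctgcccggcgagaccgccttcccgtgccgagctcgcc
Nfkb2: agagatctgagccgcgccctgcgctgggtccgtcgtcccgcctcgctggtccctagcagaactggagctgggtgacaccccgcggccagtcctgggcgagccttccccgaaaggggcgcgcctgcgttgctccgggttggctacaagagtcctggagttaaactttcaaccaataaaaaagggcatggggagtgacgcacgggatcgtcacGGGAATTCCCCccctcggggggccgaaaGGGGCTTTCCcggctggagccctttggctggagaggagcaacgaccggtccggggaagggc
Rela: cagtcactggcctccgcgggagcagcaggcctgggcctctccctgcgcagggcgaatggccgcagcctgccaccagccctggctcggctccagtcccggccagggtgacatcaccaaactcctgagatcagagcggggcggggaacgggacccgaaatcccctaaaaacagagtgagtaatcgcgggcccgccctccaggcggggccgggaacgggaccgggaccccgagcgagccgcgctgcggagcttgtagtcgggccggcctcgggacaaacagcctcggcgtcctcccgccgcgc
Nfkbia carried 1 match, at -29 to -20 counted from the start site. Bcl3 carried 1 match at 2 to 11, and the Nfkb2 window 2 separate matched stretches, whereas the Rela window held none. Over all members with a window, 5 of 7 had at least 1 match (Bcl3, Nfkb2, Nfkbia, Nfkbid and Nfkbie), in 7 of 11 windows. Across all 32851 promoter windows of the same length, 8.46% held a match. A match describes letters only.

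Total counts lay between 16627761 and 17465636 in the Muc2-/- libraries and between 16395432 and 20336459 in the wild-type libraries, and the 10 members took 7468 to 10312 counts of a Muc2-/- library and 7197 to 8172 of a wild-type library. Values below are CPM, the count scaled to the library total times a composition factor, unless FPKM, which are also per length, are named. Muc2 was counted at 756, 1020 and 941 CPM in Muc2-/- 1, 2 and 3, against 2474, 6966 and 2626 CPM in wild-type 1, 2 and 3, lower in each Muc2-/- library (edgeR adjusted p = 0.103, log2 fold change -2.15). All 13 markers of colon epithelium fixed for the tissue check were detected in every library. Their summed level was 32132, 47708 and 34152 CPM in Muc2-/- 1, 2 and 3, against 14543, 24386 and 28008 CPM in wild-type 1, 2 and 3. The 10 smooth muscle markers summed to 4565, 4141 and 2551 CPM in Muc2-/- 1, 2 and 3, against 21060, 12314 and 5939 CPM in wild-type 1, 2 and 3. Neither sum overlapped between the genotypes. Wild-type 1 and Muc2-/- 2 lay at the ends of the first principal component, which held 51.6% of the variance. Mitochondrial transcripts took 3.50%, 1.04% and 3.30% of counts in Muc2-/- 1, 2 and 3, against 8.98%, 5.30% and 3.49% in wild-type 1, 2 and 3, and their part in the results was not tested.

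The cytoplasmic inhibitors had unequal differences. Nfkbia, the inhibitor that terminates a classical NF-kappaB response, stood at 81.9, 78.0 and 103 CPM in Muc2-/- 1, 2 and 3, against 54.8, 57.2 and 48.5 CPM in wild-type 1, 2 and 3. The lowest Muc2-/- library was above the highest wild-type library. The means were 87.7 ± 13.5 CPM in Muc2-/- and 53.5 ± 4.50 CPM in wild-type (SD, n = 3 each), 1.64-fold higher in Muc2-/- (log2 fold change 0.71, SE 0.18). Nfkbib, which encodes an inhibitor resynthesised more slowly, stood at 36.5, 41.8 and 44.7 CPM in Muc2-/- 1, 2 and 3, against 30.2, 35.7 and 36.8 CPM in wild-type 1, 2 and 3 (log2 fold change 0.26, SE 0.18). Its groups overlapped by a narrow margin, Muc2-/- 1 lying below wild-type 3. Nfkbie, the third cytoplasmic inhibitor and the least abundant of them, stood at 7.26, 2.77 and 8.27 CPM in Muc2-/- 1, 2 and 3, against 8.79, 3.59 and 2.29 CPM in wild-type 1, 2 and 3. Its highest value was in wild-type 1, and the spread within each group was larger than the difference between the means of 6.10 ± 2.93 CPM in Muc2-/- and 4.89 ± 3.44 CPM in wild-type (SD, n = 3 each, log2 fold change 0.32, SE 0.60).

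Among the nuclear members Nfkbiz had the largest difference of the family. This gene encodes IkappaB-zeta, which is needed for a secondary set of NF-kappaB target genes in macrophages and epithelia. It was counted 1561, 1275 and 2068 times in Muc2-/- 1, 2 and 3, against 551, 621 and 507 times in wild-type 1, 2 and 3. These counts correspond to 92.8, 84.2 and 128 CPM in Muc2-/- 1, 2 and 3, against 30.4, 32.3 and 24.1 CPM in wild-type 1, 2 and 3. The groups were far apart, and every Muc2-/- library was above every wild-type library. The means were 102 ± 23.0 CPM in Muc2-/- and 29.0 ± 4.28 CPM in wild-type (SD, n = 3 each), 3.503-fold higher in Muc2-/- (log2 fold change 1.81, SE 0.23). Over all tested genes, 1.71% had a log2 fold change as high or higher.

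Bcl3, which binds homodimers of the Nfkb1 and Nfkb2 products and can activate or repress transcription, stood at 93.7, 54.1 and 105 CPM in Muc2-/- 1, 2 and 3, against 48.0, 61.9 and 58.5 CPM in wild-type 1, 2 and 3. Muc2-/- 1 and 3 lay above every wild-type library, and Muc2-/- 2 lay inside the wild-type range. The log2 fold change was 0.58 (SE 0.27) with all libraries and 0.84 (SE 0.16) without Muc2-/- 2. Nfkbid, which encodes IkappaB-NS, a regulator known best from lymphocytes and macrophages, was the scarcest member. It stood at 3.21, 2.11 and 5.37 CPM in Muc2-/- 1, 2 and 3, against 4.09, 3.23 and 2.00 CPM in wild-type 1, 2 and 3 (log2 fold change 0.20, SE 0.48). Its groups overlapped widely.

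**Figure D1:**
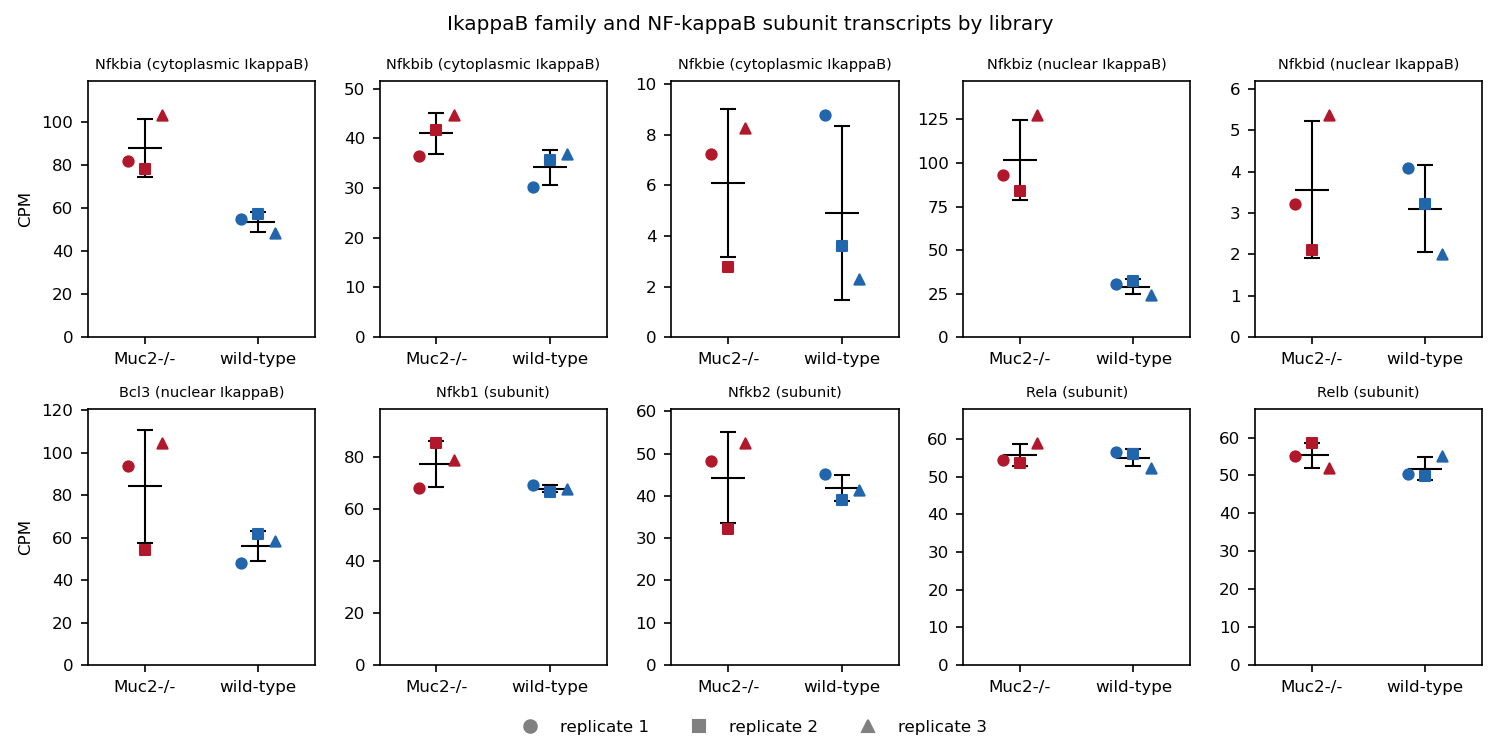
Transcript level of each member in CPM (vertical axes, from 0) in the Muc2-/- and wild-type libraries, with 1 symbol per library and the mean ± SD of 3 libraries as bars. Nfkbiz and Nfkbia are the members whose groups do not overlap, and Rela lies between 52.4 and 59.1 CPM in all 6 libraries.

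The subunit genes differed little between the genotypes. Rela, which encodes the main transactivating subunit of the classical pathway, stood at 54.5, 53.7 and 59.1 CPM in Muc2-/- 1, 2 and 3, against 56.6, 56.2 and 52.4 CPM in wild-type 1, 2 and 3 (log2 fold change 0.02, SE 0.16). The libraries of both groups fell in one narrow range, and the within-group coefficient of variation was 5.20% in Muc2-/- and 4.17% in wild-type. Relb, the partner of the Nfkb2 product in the alternative pathway, stood at 55.2, 58.7 and 52.0 CPM in Muc2-/- 1, 2 and 3, against 50.3, 49.96 and 55.3 CPM in wild-type 1, 2 and 3 (log2 fold change 0.09, SE 0.16). Nfkb1, whose precursor protein is itself an inhibitor until it is processed, stood at 68.1, 85.6 and 78.8 CPM in Muc2-/- 1, 2 and 3, against 69.3, 66.4 and 67.9 CPM in wild-type 1, 2 and 3 (log2 fold change 0.19, SE 0.17). Muc2-/- 1 was within the wild-type range, so the groups overlapped. Nfkb2, the precursor gene of the alternative pathway, stood at 48.2, 32.1 and 52.6 CPM in Muc2-/- 1, 2 and 3, against 45.1, 39.1 and 41.4 CPM in wild-type 1, 2 and 3 (log2 fold change 0.08, SE 0.22). Its Muc2-/- libraries lay on both sides of the wild-type range. For Rela, Relb, Nfkb1 and Nfkb2 the sign of these small differences turned to negative with library totals alone as the scaling, and for Rela also with upper-quartile factors.

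All 10 members had a positive log2 fold change, where 49.1% of all tested genes did. The sign was not stable for 7 of them, every member except Nfkbiz, Nfkbia and Bcl3, over the alternatives tried. The median was 0.23 over the family, 0.45 over the IkappaB genes and 0.09 over the subunit genes, beside -0.01 over all tested genes. edgeR's quasi-likelihood test placed 1 member, Nfkbiz, past an adjusted p of 0.05 as higher and 0 as lower, where 0.106% of tested genes were called higher and 0.0186% lower. DESeq2 placed 2, Nfkbiz and Nfkbia, past the same threshold as higher and 0 as lower, where it called 4.09% of genes higher, 7.41% lower and 11.5% in either direction. The groups did not overlap for 2 members, both higher in Muc2-/-, where 13.4% of tested genes were higher without overlap, 15.2% lower and 28.6% either. The log2 fold change was under 0.2 in size for 4 members, the subunits, and for 28.8% of tested genes. Since this contrast led to the choice of the family, nothing is read from these counts. The call of Nfkbiz held in 9 of 19 alternatives and ended, among others, without Muc2-/- 1, Muc2-/- 3, wild-type 1 or wild-type 2. Its log2 fold change stayed between 1.63 and 1.96. The share of all tested genes called in either direction moved far more. It was 0.168% with RLE factors, 0.106% with upper-quartile factors, 0.0497% with no composition factors, 4.47% with no filter, 0.135% with a stricter filter, 0.0807% with limma-voom and 4.18% with a replicate block. On log2(FPKM + 1) it was 0.363% with a minimum of 1 FPKM and 0.0112% with none, and on log2(FPKM + 0.1) 0.308%. It was 0.0298%, 0.107% and 0.00597% without Muc2-/- 1, 2 or 3, 0.00607%, 0% and 7.3% without wild-type 1, 2 or 3, 0.00616% without Muc2-/- 2 and wild-type 1 together, and 0% with a smooth muscle covariate.

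**Figure D2:**
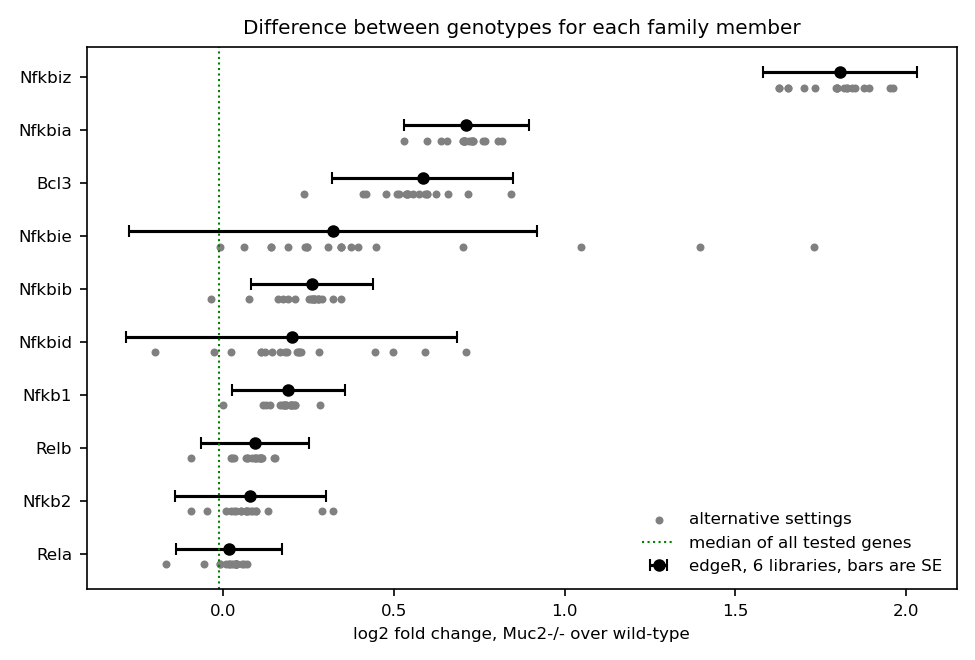
Log2 fold change of Muc2-/- over wild-type for each member (horizontal axis), with the edgeR estimate and SE in black and the values under 19 alternative settings in grey. Nfkbiz stays between 1.63 and 1.96 in all of them, and the edgeR estimates of the 4 subunit genes lie between 0.02 and 0.19.

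Levels per length put Nfkbia first in both genotypes, and Nfkbie and Nfkbid, whose libraries overlapped, at the low end. In Muc2-/- colon Nfkbia had a mean of 54.8 ± 8.27 FPKM, followed by Bcl3 (34.1 ± 10.6 FPKM), Nfkbiz (20.3 ± 4.54 FPKM), Nfkbib (19.0 ± 2.07 FPKM) and Rela (18.3 ± 0.909 FPKM). Bcl3, Nfkbiz and Nfkbib each overlapped with the next in this order. In wild-type colon the order was Nfkbia (32.9 ± 2.18 FPKM), Bcl3 (22.5 ± 3.19 FPKM), Rela (17.8 ± 0.344 FPKM), Nfkbib (15.7 ± 1.93 FPKM) and Relb (13.2 ± 1.07 FPKM, SD, n = 3 in each group). Nfkbiz held rank 3 in Muc2-/- and rank 7 in wild-type, where it had 5.71 ± 0.741 FPKM, close to Nfkb1 at 5.58 ± 0.154 FPKM with overlapping libraries. Nfkbie and Nfkbid stayed at or under 2.81 FPKM in all 6 libraries.

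**Figure D3:**
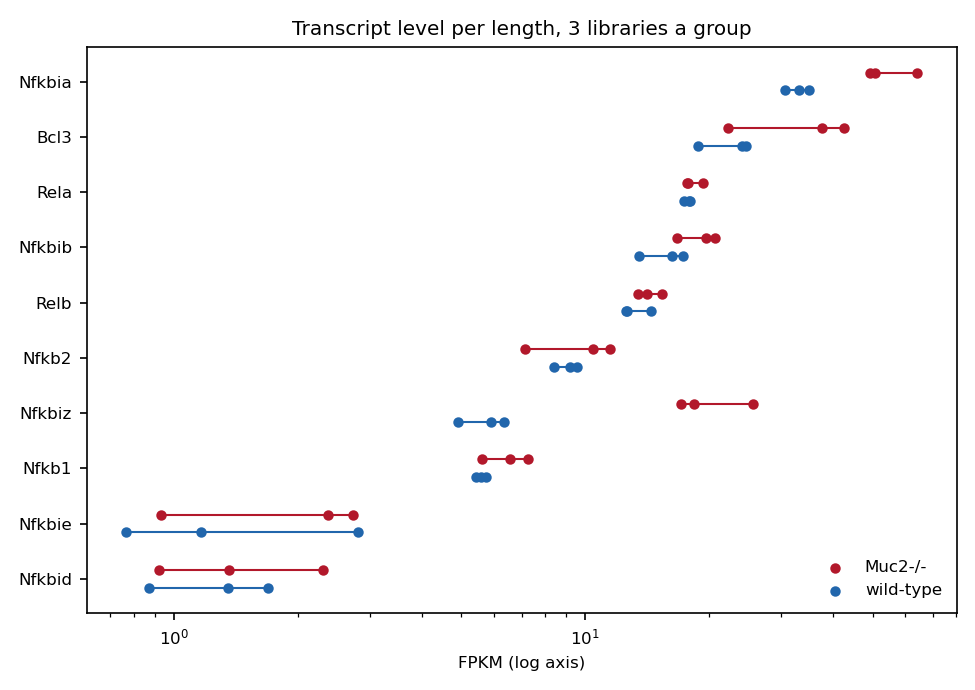
Deposited FPKM of each member (log axis) in the 3 Muc2-/- and 3 wild-type libraries, with a line from the lowest to the highest library of each group. Nfkbiz changes its place in the order, at 17.1 to 25.5 FPKM in Muc2-/- and 4.90 to 6.35 FPKM in wild-type.

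Summed per length, the IkappaB transcripts amounted to 127, 110 and 158 FPKM in Muc2-/- 1, 2 and 3, against 75.9, 84.7 and 78.5 FPKM in wild-type 1, 2 and 3. The sum over the 4 subunits was 47.9, 47.6 and 50.8 FPKM in Muc2-/- 1, 2 and 3, against 45.7, 44.5 and 46.8 FPKM in wild-type 1, 2 and 3. Neither sum overlapped, but the IkappaB sums differed far more in size. Inhibitor over subunit transcripts gave a ratio of 2.69 ± 0.398 in Muc2-/- and 1.75 ± 0.135 in wild-type (SD, n = 3 each). This ratio compares members within a library, so it does not depend on the scaling between libraries. Nfkbia over Rela was 2.87, 2.77 and 3.33 in Muc2-/- 1, 2 and 3, against 1.85, 1.94 and 1.76 in wild-type 1, 2 and 3. Nfkbiz over Nfkbia was 0.363, 0.346 and 0.397 in Muc2-/- 1, 2 and 3, against 0.178, 0.181 and 0.160 in wild-type 1, 2 and 3. Within each genotype this last ratio varied little, and the groups were far apart. Nfkbiz made up 15.4% ± 0.845 of the summed IkappaB FPKM in Muc2-/- and 7.17% ± 0.816 in wild-type (SD, n = 3 each), whereas Nfkbia made up 41.8% ± 2.67 in Muc2-/- and 41.3% ± 2.28 in wild-type.

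**Figure D4:**
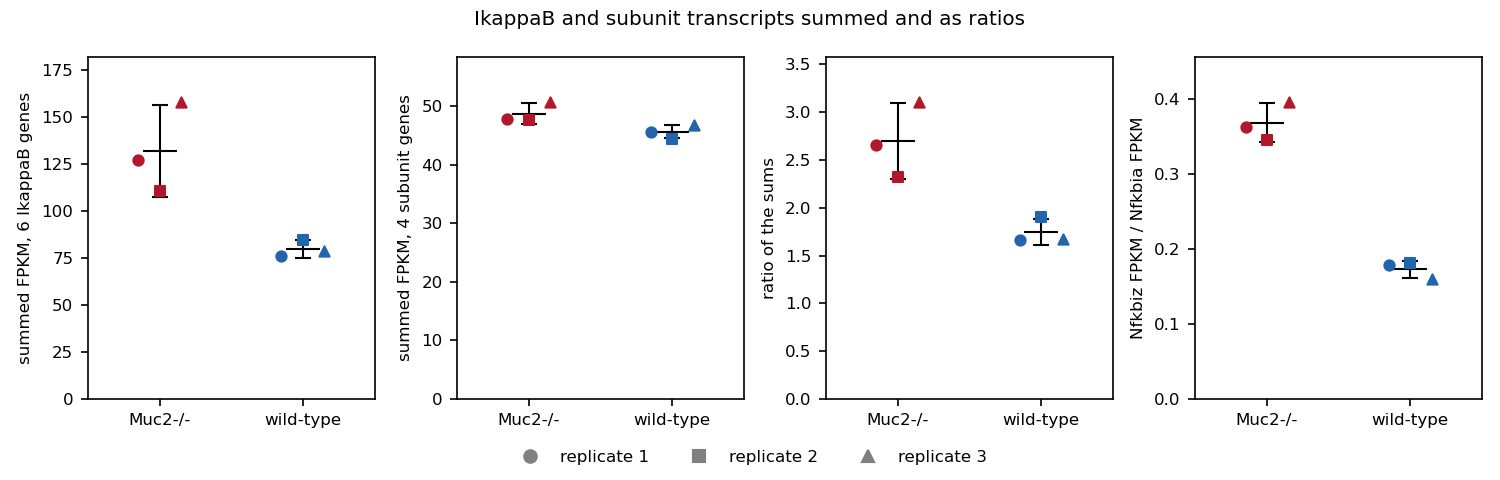
Summed FPKM of the 6 IkappaB genes and of the 4 subunit genes, the ratio of these sums, and the ratio of Nfkbiz to Nfkbia (vertical axes, from 0), by library with the mean ± SD of 3 libraries. The IkappaB sum is 110 to 158 FPKM in Muc2-/- and 75.9 to 84.7 FPKM in wild-type, beside a subunit sum of 44.5 to 50.8 FPKM over all libraries.

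In bulk tissue a change in the number of cells of a type and a change in RNA per cell cannot be told apart. Markers of immune cells moved with several members. The 9 B cell markers summed to 49.95, 13.4 and 72.0 CPM in Muc2-/- 1, 2 and 3, against 175, 13.1 and 4.48 CPM in wild-type 1, 2 and 3. Nfkbie was highest in the same 3 libraries, wild-type 1, Muc2-/- 3 and Muc2-/- 1, and Nfkbid had its highest levels in Muc2-/- 3 and wild-type 1. Without wild-type 1 the log2 fold change of Nfkbie was 1.05 and that of Nfkbid 0.44. The part of B cells, T cells or dendritic cells in these values was not tested.

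Macrophage and monocyte markers (10 genes) summed to 478, 335 and 521 CPM in Muc2-/- 1, 2 and 3, against 418, 195 and 232 CPM in wild-type 1, 2 and 3. The sum of wild-type 1 was mostly Lyz2, at 249 CPM. The other 9 markers summed to 297, 231 and 336 CPM in Muc2-/- 1, 2 and 3, against 169, 101 and 149 CPM in wild-type 1, 2 and 3, so that without Lyz2 they were higher in each Muc2-/- library, as Nfkbiz was. The part of macrophages in the Nfkbiz values was not tested. Of 8 neutrophil markers, Ly6g, a member of a family of near copies, had 395 to 611 CPM in Muc2-/- and 75.7 to 231 CPM in wild-type. The other 7 summed to 64.9, 7.13 and 237 CPM in Muc2-/- 1, 2 and 3, against 1.05, 0.833 and 0.429 CPM in wild-type 1, 2 and 3, and 5 of them were at 0 in all wild-type libraries. Most of the Muc2-/- sums was S100a8 (41.5, 4.36 and 152 CPM) and S100a9 (19.8, 0.726 and 80.7 CPM), which are also among the IkappaB-zeta-dependent genes below. Apart from S100a9, the markers at 0 in wild-type were not tested and had at most 18 counts in a Muc2-/- library. In Muc2-/- 2, where Nfkbiz was 84.2 CPM, the 7 markers without Ly6g summed to 7.13 CPM, above each wild-type library. The part of neutrophils in the Nfkbiz values was not tested. The 7 plasma cell markers summed to 3981, 5563 and 3870 CPM in Muc2-/- 1, 2 and 3, against 821, 900 and 1150 CPM in wild-type 1, 2 and 3, and edgeR called 2 of them, Igha and Jchain, higher. Of 7 mast cell markers, the 6 without Kit summed to 30.03, 30.5 and 34.3 CPM in Muc2-/- 1, 2 and 3, against 0.718, 0.468 and 1.19 CPM in wild-type 1, 2 and 3, and edgeR called Mcpt2 higher. Mcpt2 had 3, 1 and 6 counts in wild-type 1, 2 and 3 and passed the count filter through the Muc2-/- libraries alone. It could only be called higher, so nothing is read from that call. Kit stood at 32.1, 39.7 and 31.4 CPM in Muc2-/- 1, 2 and 3, against 74.4, 71.4 and 35.8 CPM in wild-type 1, 2 and 3. Its groups overlapped, Muc2-/- 2 lying above wild-type 3, and with Kit included the mast cell sums overlapped too. The plasma cell sums and the mast cell sums without Kit separated the genotypes, as Nfkbiz and Nfkbia did, and their part in those values was not tested. The summed levels of the B cell, macrophage and monocyte and T cell markers and those of 7 family members, Nfkbia, Nfkbie, Nfkbiz, Nfkbid, Bcl3, Nfkb2 and Rela, were highest in Muc2-/- 3 and lowest in Muc2-/- 2 within that genotype. Among wild-type libraries the same marker sums were highest in wild-type 1, as were Nfkbie, Nfkbid, Nfkb2 and Rela, whereas Nfkbiz, Nfkbia and Bcl3 were highest in wild-type 2. The dendritic cell and endothelium marker sums were also highest in Muc2-/- 3, lowest in Muc2-/- 2 and highest in wild-type 1. The neutrophil marker sum had the same Muc2-/- order and was highest in wild-type 3.

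**Figure D5:**
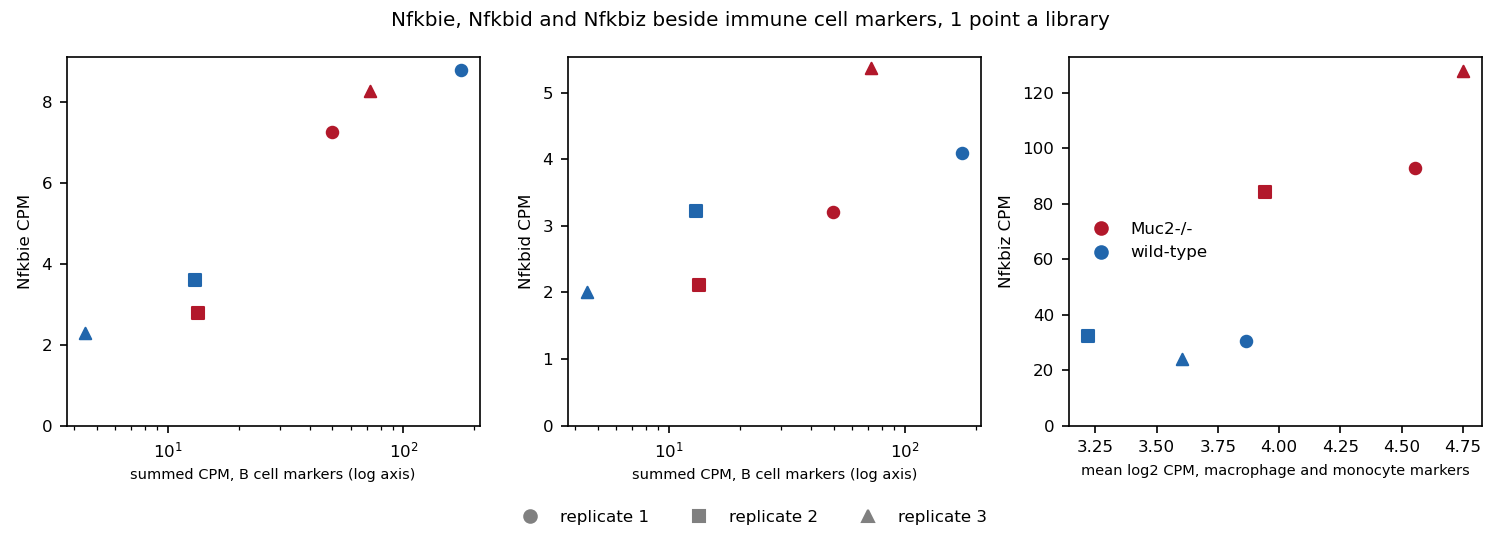
CPM of Nfkbie and Nfkbid against the summed CPM of 9 B cell markers (log axis), and CPM of Nfkbiz against the mean log2 CPM of 10 macrophage and monocyte markers, with 1 point per library. Nfkbie is highest where B cell markers are, in wild-type 1 at 8.79 CPM, and the mean log2 CPM of the macrophage and monocyte markers is 3.94 to 4.75 in Muc2-/- and 3.22 to 3.86 in wild-type. The summed CPM of the same 10 markers, not drawn, overlaps between the genotypes, with 335 in Muc2-/- 2 and 418 in wild-type 1.

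The epithelial markers were also higher in Muc2-/-, so Nfkbiz was set against them. Per 1000 CPM of the 13 epithelial markers, Nfkbiz stood at 2.89, 1.76 and 3.74 CPM in Muc2-/- 1, 2 and 3, against 2.09, 1.33 and 0.862 CPM in wild-type 1, 2 and 3. On this scale the groups overlapped, Muc2-/- 2 lying below wild-type 1, and the ratio of the means was 1.96. Set against single epithelial adhesion genes, Nfkbiz did not overlap per 1000 CPM of Epcam, with a ratio of means of 2.30. Per 1000 CPM of Cdh1 it overlapped, at 66.1, 39.0 and 82.5 CPM in Muc2-/- 1, 2 and 3, against 45.0, 37.5 and 22.0 CPM in wild-type 1, 2 and 3. Nfkbia on the scale of the 13 markers averaged 2.40 ± 0.704 CPM in Muc2-/- and 2.62 ± 1.05 CPM in wild-type (SD, n = 3 each), with overlapping groups. The subunit Rela on the same scale stood at 1.70, 1.12 and 1.73 CPM in Muc2-/- 1, 2 and 3, against 3.89, 2.30 and 1.87 CPM in wild-type 1, 2 and 3, lower in each Muc2-/- library. Nfkb1, Relb and Nfkbib were likewise lower without overlap on this scale, with ratios of means of 0.627, 0.598 and 0.684, and all other members overlapped. These scales were chosen after the values were seen, and the part of epithelial content was not tested. With a smooth muscle score as a covariate the log2 fold change of Nfkbiz was 1.85 (SE 0.46, edgeR adjusted p = 0.984). The score, the mean log2 CPM of the muscle markers, was 7.10 to 7.95 in Muc2-/- and 8.31 to 10.1 in wild-type. It did not overlap between the genotypes, so this fit cannot separate muscle content from genotype.

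The genes whose pattern over the 6 libraries was most like that of Nfkbiz were Arid3a, Fcer1g, Dusp6, Unc13d and Gm379. Likeness was the root mean square difference of log2 CPM centred on each gene's mean, which was 0.157 to 0.215 for these 5. Dusp6, a phosphatase that acts on extracellular signal-regulated kinases, stood at 144, 112 and 197 CPM in Muc2-/- 1, 2 and 3, against 51.8, 55.5 and 49.2 CPM in wild-type 1, 2 and 3. Fcer1g, the shared signalling chain of Fc receptors on myeloid and mast cells, stood at 10.3, 8.65 and 16.5 CPM in Muc2-/- 1, 2 and 3, against 3.92, 3.69 and 3.62 CPM in wild-type 1, 2 and 3. Both were highest in Muc2-/- 3, as Nfkbiz was, which largely follows from their choice by likeness over these libraries. The 3 nearest to Nfkbia were Flrt3, Frmd4b and Syk, at 0.0703 to 0.0808. Within the family the closest pair was Nfkb1 and Relb at 0.113.

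Some members share their span with other genes. The sources used here do not give the strand setting of the counting. In the coordinates of the count table, Nfkb2 (chromosome 19 from 46292759 to 46300824) shared 299 bases with Psd on the opposite strand. Psd stood at 40.3, 19.5 and 20.9 CPM in Muc2-/- 1, 2 and 3, against 162, 97.6 and 44.8 CPM in wild-type 1, 2 and 3. The long noncoding gene 4833438C02Rik, also on the opposite strand, shared 1292 bases with Nfkb2 and stood between 4.95 and 7.26 CPM in all 6 libraries. Without the strand setting it is not known whether reads of these genes entered the Nfkb2 count. Nfkbib (chromosome 7 from 28457676 to 28466937) shared 778 bases with Sirt2, which had 44.4, 17.8 and 43.7 CPM in Muc2-/- 1, 2 and 3, against 49.3, 49.2 and 49.7 CPM in wild-type 1, 2 and 3. Gm16175 and Gm16174 shared 2264 and 2073 bases with Bcl3, Gm43430 3897 bases with Nfkb1 and Ccer2 718 bases with Nfkbib, and each had at most 1.17 CPM in any library. The spans of Nfkbiz (chromosome 16 from 55631738 to 55659262) and Nfkbia (chromosome 12 from 55536195 to 55539432) held no other listed gene.

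Around the family, 145 genes of 8 lists were followed, of which 131 were tested. edgeR called 0 of them in either direction, with a smallest adjusted p of 0.0544, where 0.124% of all tested genes were called. At an unadjusted p under 0.05, 30 were higher and 3 lower in Muc2-/-, where 8.23% and 12.7% of tested genes were, and DESeq2 called 25 higher and 1 lower, where it called 4.09% and 7.41% of genes. Il1b, which had the smallest adjusted p, Cxcl2, Cxcl5, S100a8 and S100a9 passed the count filter through the Muc2-/- libraries alone. They could only add to the genes counted as higher. The lists were also chosen with earlier results of these data known, so nothing is read from these counts.

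Among receptors and ligands of the classical pathway (22 of 28 tested), 0 passed in edgeR, and DESeq2 called 5 higher. The median log2 fold change was 0.24. Il1b, the cytokine interleukin-1 beta, stood at 4.16, 10.3 and 9.50 CPM in Muc2-/- 1, 2 and 3, against 0.497, 0.364 and 0.143 CPM in wild-type 1, 2 and 3 (log2 fold change 4.56, SE 0.61, edgeR adjusted p = 0.0544). It passed the count filter through the Muc2-/- libraries alone, so it had to be higher there and nothing is read from its p-value. Tnfrsf1b, the second receptor for tumour necrosis factor, averaged 77.6 ± 18.5 CPM in Muc2-/- and 29.7 ± 5.37 CPM in wild-type (edgeR adjusted p = 0.0856, log2 fold change 1.39). Il1rl1, the receptor for interleukin-33, averaged 45.2 ± 30.7 CPM in Muc2-/- and 2.29 ± 1.42 CPM in wild-type (edgeR adjusted p = 0.0830, log2 fold change 4.30). Tlr3, a receptor for double-stranded RNA, had a log2 fold change of 1.01 (edgeR adjusted p = 0.106). The groups of these 4 genes did not overlap, which was a condition for naming them, so nothing is read from it. In the list, 8 of 22 tested genes were higher without overlap and 0 lower, where 13.4% and 15.2% of all tested genes were. The receptors Tnfrsf1a and Il17rc were the most abundant of the list, with log2 fold changes of 0.57 and 0.53. The ligand genes Il17a, Il17f and Il17c had too few counts to be tested.

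Kinases and adaptors, all 33 tested, had a median log2 fold change of 0.25, and 0 were called by edgeR or DESeq2, with 2 higher and 0 lower unadjusted. Chuk, a catalytic subunit of IkappaB kinase, averaged 108 ± 15.8 CPM in Muc2-/- and 76.4 ± 10.1 CPM in wild-type (edgeR adjusted p = 0.201, log2 fold change 0.50). Bcl10, a scaffold between antigen or Fc receptors and the kinase, averaged 123 ± 13.8 CPM in Muc2-/- and 88.1 ± 11.3 CPM in wild-type (0.49, edgeR adjusted p = 0.196). Birc2, a ubiquitin ligase, had a log2 fold change of 0.53 (edgeR adjusted p = 0.269), and Btrc, the receptor of the ligase that tags phosphorylated inhibitors, one of -0.46 (edgeR adjusted p = 0.299). Tab2 and Rbck1, among the most abundant of the list, had log2 fold changes of 0.42 and 0.25.

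In the list of the alternative pathway (12 of 16 tested) 0 were called by edgeR or DESeq2, 1 was higher and 1 lower unadjusted, and the median was -0.02. Ltbr, the lymphotoxin beta receptor, had a log2 fold change of 0.21, Tnfsf13b, the B cell survival factor BAFF, one of 0.84 (edgeR adjusted p = 0.215), Tnfrsf11a one of 0.13 and Tnfrsf12a one of 0.61. Ccl21a, a chemokine of lymphatic vessels and lymphoid tissue, stood at 22.7, 15.4 and 15.7 CPM in Muc2-/- 1, 2 and 3, against 77.1, 28.3 and 23.2 CPM in wild-type 1, 2 and 3 (edgeR adjusted p = 0.177, log2 fold change -1.26). Its highest library was wild-type 1, the one with the highest B cell markers.

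Of 21 negative regulators edgeR called 0 and DESeq2 3 higher (median 0.23). Tnip3, a partner of the ubiquitin-editing enzyme A20, averaged 58.1 ± 24.2 CPM in Muc2-/- and 15.02 ± 6.72 CPM in wild-type (edgeR adjusted p = 0.103, log2 fold change 1.95). Socs1, a suppressor of cytokine signalling, stood at 12.1, 7.86 and 33.8 CPM in Muc2-/- 1, 2 and 3, against 5.19, 3.28 and 4.19 CPM in wild-type 1, 2 and 3 (edgeR adjusted p = 0.106, log2 fold change 2.08). Cyld, a deubiquitinase, averaged 51.8 ± 1.79 CPM in Muc2-/- and 37.0 ± 1.76 CPM in wild-type (edgeR adjusted p = 0.142, log2 fold change 0.49). DESeq2 called these 3. Nkrf had a log2 fold change of -0.40, Tax1bp1 one of 0.30 and Rnf11 one of 0.08.

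Of 7 genes that control turnover of Nfkbiz mRNA, 0 were called by edgeR and 1 by DESeq2 (median 0.43). Zc3h12a, the endonuclease Regnase-1 that degrades Nfkbiz mRNA, stood at 70.9, 21.3 and 103 CPM in Muc2-/- 1, 2 and 3, against 19.9, 23.0 and 20.9 CPM in wild-type 1, 2 and 3 (log2 fold change 1.61, SE 0.49, edgeR adjusted p = 0.128). Muc2-/- 2 lay inside the wild-type range of Zc3h12a, as it did for Bcl3. Zc3h12d (0.63), Rc3h1 (0.35), Rc3h2 (0.43) and Arid5a (0.65) had edgeR adjusted p between 0.238 and 0.398.

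Genes that depend on IkappaB-zeta in mouse or human cells numbered 13, of which 8 were tested. edgeR called 0 and DESeq2 5. Of these 8, Cxcl2, Cxcl5, S100a8 and S100a9 passed the count filter through the Muc2-/- libraries alone, so they had to be higher there, and nothing is read from the count. S100a8 and S100a9 encode calcium-binding proteins and are also among the neutrophil markers above. S100a9 had 333, 11 and 1308 counts in Muc2-/- 1, 2 and 3, against 0 in each wild-type library. With the wild-type group set to a floor of 3 counts it was at least 667-fold higher over the pooled Muc2-/- libraries, and at least 209-fold without Muc2-/- 3. S100a8 had 698, 66 and 2457 counts in Muc2-/- 1, 2 and 3, against 0, 3 and 0 in wild-type 1, 2 and 3. The ratio was 1300 with an exact 95% interval from 444 to 6306 that covers counting error only, and 465 (158 to 2258) without Muc2-/- 3. Cxcl2, another chemokine, had 98 counts in Muc2-/- and 2 in wild-type, a ratio of 59.3 (95% interval 15.99 to 497). Cxcl5, a neutrophil-attracting chemokine, stood at 10.4, 2.24 and 14.1 CPM in Muc2-/- 1, 2 and 3, against 0.0553, 0 and 0.333 CPM in wild-type 1, 2 and 3 (edgeR adjusted p = 0.0935, log2 fold change 5.98). Pigr, the transporter of IgA across epithelium, averaged 3305 ± 746 CPM in Muc2-/- and 3081 ± 824 CPM in wild-type (edgeR adjusted p = 0.896, log2 fold change 0.10).

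Canonical target genes (33 of 34 tested) had a median log2 fold change of 0.98, and 2 of them, Il1b and Cxcl2, passed the filter through Muc2-/- libraries alone. edgeR called 0 of them, DESeq2 15 higher and 0 lower, and 16 were higher and 1 lower unadjusted. Nos2, the inducible nitric oxide synthase, stood at 37.5, 15.5 and 105 CPM in Muc2-/- 1, 2 and 3, against 3.87, 2.81 and 1.24 CPM in wild-type 1, 2 and 3 (log2 fold change 4.32, SE 0.76, edgeR adjusted p = 0.0886). Ptgs2, the inducible cyclooxygenase, averaged 30.4 ± 28.1 CPM in Muc2-/- and 3.85 ± 1.21 CPM in wild-type (edgeR adjusted p = 0.103, log2 fold change 2.98). Plau, the urokinase plasminogen activator, averaged 33.4 ± 22.4 CPM in Muc2-/- and 4.95 ± 2.16 CPM in wild-type (edgeR adjusted p = 0.101, log2 fold change 2.75). Nos2 was lowest in Muc2-/- 2 among the Muc2-/- libraries, whereas Ptgs2 and Plau were highest there, at 62.6 and 58.6 CPM. Sqstm1, an abundant member, had a log2 fold change of 0.08.

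Of the other Rel-domain genes, all 6 tested, edgeR called 0 and DESeq2 1, lower. Rel, the fifth NF-kappaB subunit, stood at 12.4, 11.5 and 16.2 CPM in Muc2-/- 1, 2 and 3, against 10.9, 7.34 and 7.24 CPM in wild-type 1, 2 and 3 (log2 fold change 0.66, SE 0.28, edgeR adjusted p = 0.239). Its groups did not overlap, a condition of the naming rule, though wild-type 1 came close to Muc2-/- 2. Nfatc4, a related calcium-regulated factor, averaged 6.58 ± 2.55 CPM in Muc2-/- and 20.3 ± 12.8 CPM in wild-type (edgeR adjusted p = 0.135, log2 fold change -1.63). Nfat5 and Nfatc3 had log2 fold changes of -0.15 and 0.06.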

How the data were processed

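The authors deposited a table of whole-number counts per gene and a table of FPKM. Per the submitters' processing notes, which give no role or order, the software included featureCounts 1.5.0-p3, HISAT2 2.0.5, DESeq2 1.20.0 and StringTie 1.3.3b, with mm10 as build. For genes with at least 50 counts, the deposited FPKM equalled the count over the listed gene length and over a library total times a factor from 0.860 to 1.14, within 1%. The table's coordinates put 0 of 10 members within 5 kb of their GRCm38.p6 start, although the notes name mm10, so they are printed as listed with the assembly not given in the sources used here. Rows with no gene name held at most 0.192% of a library's counts.

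Counts were fitted with edgeR 4.0.16 in R 4.3.3 (TMM, minimum count 10 and total 15, quasi-likelihood test, genotype alone, Benjamini-Hochberg over all tested genes). SE is the log2 fold change over the square root of F. CPM use library totals times TMM factors. p-values measure the spread between libraries, which may be technical in part. Replicates differed by a chi-square of 26.5 to 166 per degree of freedom, so none was merged. Alternatives were other scaling factors, filters, DESeq2 1.42.0, limma 3.58.1 on counts or on log2(FPKM + 1 or 0.1), the replicate number as a block and leaving out libraries. Members and lists were chosen with earlier results of these data known. Genes were named by rule: all members, called genes, up to 4 per list with the largest change at 5 CPM or more without overlap and the 2 most abundant, the nearest patterns, and genes sharing a span. Epcam, Cdh1, Ly6g, Lyz2, Kit, Igha, Jchain, Mcpt2, Cxcl2 and the interleukin-17 ligand genes were named after their values were seen.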

Additional observations from a re-analysis of the deposited data

How the results depend on the processing

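The count of genes called by edgeR was 17 higher and 3 lower in Muc2-/-. It was 7 and 1 with no composition factors, 384 and 815 with no filter, 659 and 1193 with DESeq2, 11 higher with limma-voom, and 5 lower with RLE factors. With limma on log2(FPKM + 1) it was 37 and 9 at a minimum of 1 FPKM and 3 and 0 with no minimum, and 31 and 8 with a pseudocount of 0.1. Leaving out 1 library gave 0 to 272 higher and 0 to 954 lower, the highest of both without wild-type 3. Family members called higher (1) became 2 with DESeq2, 0 with upper-quartile factors, no composition factors, limma-voom or FPKM with no minimum, and 0 to 1 with 1 library left out. Pathway genes called (0) became 1 higher with RLE factors and at either pseudocount with a minimum, 20 higher and 1 lower with no filter, 25 higher and 1 lower with DESeq2, and 0 to 14 higher and 0 to 1 lower with 1 library left out. The median of the family, 0.23, was 0.17 to 0.39 with 1 library left out. The causes of these changes were not tested.

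The labels do not say whether replicate numbers pair the libraries, and with 3 libraries a group the deviations cannot decide it. Deviations of same-numbered libraries correlated at 0.0937, 0.281 and 0.0606, and not every library correlated best with its own number. With the replicate block, 225 genes were called higher and 448 lower, 1 family member higher, and 15 pathway genes higher. Added after seeing the data, as were the sums without Lyz2 or Kit and the ratios without Muc2-/- 3, leaving out Muc2-/- 2 and wild-type 1 together gave 1 gene higher and 0 lower, 0 members and a family median of 0.52, and a smooth muscle score as covariate gave 0 genes in each direction and 0 members.

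Log2 fold changes that turned negative were those of Nfkbib (-0.0355 with the muscle score), of Nfkb1 (-0.0010), Nfkb2 (-0.0954), Rela (-0.1688) and Relb (-0.0948) with no composition factors, and of Rela with upper-quartile factors (-0.0561). With libraries left out, Nfkbie ranged from -0.0100 (without wild-type 3) to 1.40, Nfkbid from -0.2007 (without Muc2-/- 3, and -0.0281 without wild-type 3) to 0.71, Nfkb2 from -0.0465 (without Muc2-/- 3) to 0.32, and Rela from -0.0090 (without wild-type 3, and -0.0088 without Muc2-/- 3) to 0.0683. With no composition factors the median of all genes moved by -0.19. Nfkbia ranged from 0.53 to 0.82 and Bcl3 from 0.24 to 0.84. At 32 to 87 counts in each Muc2-/- library and 42 to 74 in each wild-type library, Nfkbid allows no firm statement.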
